A study of Mus musculus with 24 samples.

Results

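The genes described here are the activators of the circadian clock, Clock, Arntl and Npas2, and the nuclear receptors that act on them, the REV-ERB genes Nr1d1 and Nr1d2 and the ROR genes Rora and Rorb. The 7 genes were chosen by name, and a gene was measured by the probe set annotated to its symbol alone, the one with the highest mean where there were several. Of the 7 genes, 6 had such a probe set, 1 each, among the 19938 genes with a probe set of 1 symbol. Npas2, which encodes a relative of CLOCK that can stand in for it, had none and was not analysed here. The probe sets were 10530733 for Clock, 10556463 for Arntl, 10390691 for Nr1d1, 10417734 for Nr1d2, 10586700 for Rora and 10466587 for Rorb.

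RNA came from the mediobasal hypothalamus of mice of a background strain that the labels spell C57BL76J, with no transgene or deletion named. In timed sleep restriction (TSR), mice were kept awake by gentle handling in the hours from ZT0 to ZT6, where ZT is zeitgeber time in hours after lights on, for 5 days. They slept freely for 2 days and were then restricted for 5 more days, and control mice (CON) were left undisturbed over the same period. Each condition was sampled at ZT1, ZT7, ZT13 and ZT19 with 3 arrays a group, 24 in all, from 3 mice a group per the series description, and the number of arrays limits the precision. The times are the numbers 1, 7, 13 and 19 of the sample titles, read here as zeitgeber time because the labels name no unit for them. The labels used here give no age, sex or day of collection. On that reading ZT1 lies within the hours of handling and ZT7 just after them. The comparisons asked how the level of each gene at each time, and its daily rhythm, differed between TSR and CON.

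The mammalian clock is a loop of transcription and translation. CLOCK, or NPAS2 in its place, pairs with BMAL1, the product of Arntl, and the pair binds E-box motifs to drive the Period and cryptochrome genes, whose products shut the pair off, and also the REV-ERB genes. A coupled loop runs through the RORE motif, where REV-ERB proteins repress and ROR proteins activate Arntl, Clock and other genes. In the hypothalamus the suprachiasmatic nucleus is the master pacemaker, and the mediobasal part holds the arcuate nucleus, which has a clock of its own and controls appetite and energy balance.

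The 2 promoter windows below are shown because they hold matches to the motifs through which the activators and the receptors are known to act on each other. Each runs 5′ to 3′ on the strand of the gene, from 250 bases before a transcript start to 50 bases after it, from RefSeq for the build GRCm38.p6. Capitals mark the motif match. The Arntl window is chr7:113207261-113207560 on the plus strand, at the second of its annotated starts. The Nr1d1 window is chr11:98775328-98775627 on the minus strand.
Arntl: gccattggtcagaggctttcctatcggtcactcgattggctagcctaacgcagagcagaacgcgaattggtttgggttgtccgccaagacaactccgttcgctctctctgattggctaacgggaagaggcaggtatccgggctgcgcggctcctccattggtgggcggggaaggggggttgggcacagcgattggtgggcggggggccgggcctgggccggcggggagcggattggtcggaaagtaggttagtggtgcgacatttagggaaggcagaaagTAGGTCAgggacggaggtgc
Nr1d1: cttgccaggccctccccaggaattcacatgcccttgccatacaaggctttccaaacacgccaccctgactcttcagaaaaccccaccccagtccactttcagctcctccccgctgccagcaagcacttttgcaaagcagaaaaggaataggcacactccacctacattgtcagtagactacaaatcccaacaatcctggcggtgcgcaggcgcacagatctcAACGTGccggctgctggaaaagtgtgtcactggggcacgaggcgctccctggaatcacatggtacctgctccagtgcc
In the Arntl window the RORE core TAGGTCA begins 30 bases after the start. In the Nr1d1 window AACGTG begins 28 bases before the start, and read on the other strand it is CACGTT, an E-box variant called the E′-box. Both strands of 11 windows of the 7 genes were searched. CACGTT was in 2 of the 11 windows, the other one being at the second start of Rorb, and in 4.68% of 32851 windows of all genes. A RORE core, TAGGTCA or TGGGTCA, was in 1 of the 11 windows and in 6.45% of all windows. The canonical E-box CACGTG was in 0 of the 11 and in 7.15% of all windows, and the D-box motif, TTATGTAA or TTACGTAA, was in 0 of the 11 and in 1.06%. No window held more than 1 match, and a match is a stretch of letters, not a measured binding site.

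Values are the deposited log2 signals, on which 1 unit is a doubling. A level on this scale can be compared between arrays for 1 gene, not between genes. Of the 24 arrays, 4 stood apart: replicate 3 of TSR at ZT1, replicate 2 of TSR at ZT13 and replicates 2 and 3 of CON at ZT19. Their interquartile range over all probe sets was 2.12 to 2.25 log2 units, under the limit of 2.5, against 2.96 to 3.28 on the other 20. Their median rank correlation with the other arrays was 0.836 to 0.882, against 0.976 to 0.986. The mean of the 6 genes was 7.47 to 7.79 on these narrow arrays and 8.83 to 9.22 on the others, and each of the 6 genes was lower on every narrow array than on every other array. Each test was therefore made with all 24 arrays and with the 20 that remained. The median residual standard deviation of a gene was 0.36 with 24 arrays and 0.111 with 20. Without the narrow arrays CON at ZT19 had 1 array, which the fit assumed to vary like the other groups.

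**Figure D1:**
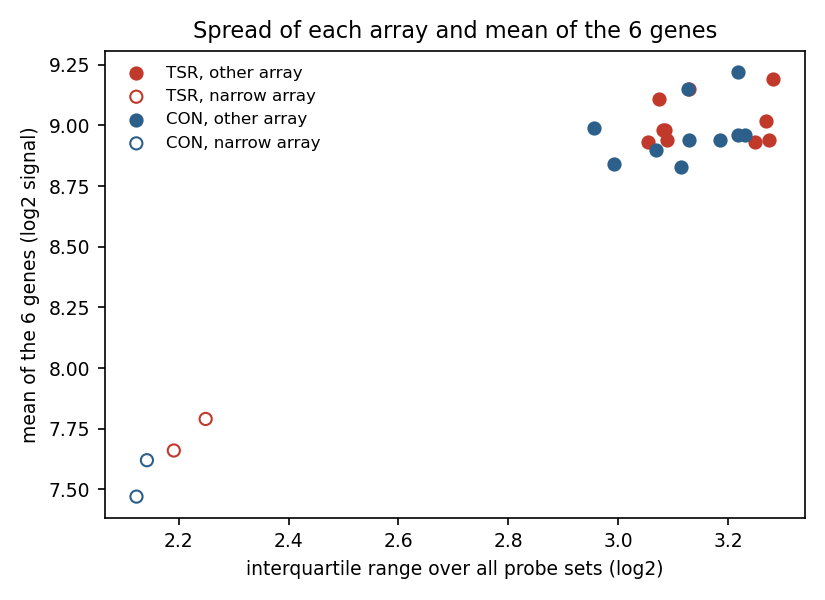
Mean log2 signal of the 6 measured genes (vertical axis) against the interquartile range over all probe sets in log2 units (horizontal axis) for each of 24 arrays. The 4 narrow arrays, drawn as open circles, sit at means of 7.47 to 7.79, below the other 20 at 8.83 to 9.22.

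**Figure D2:**
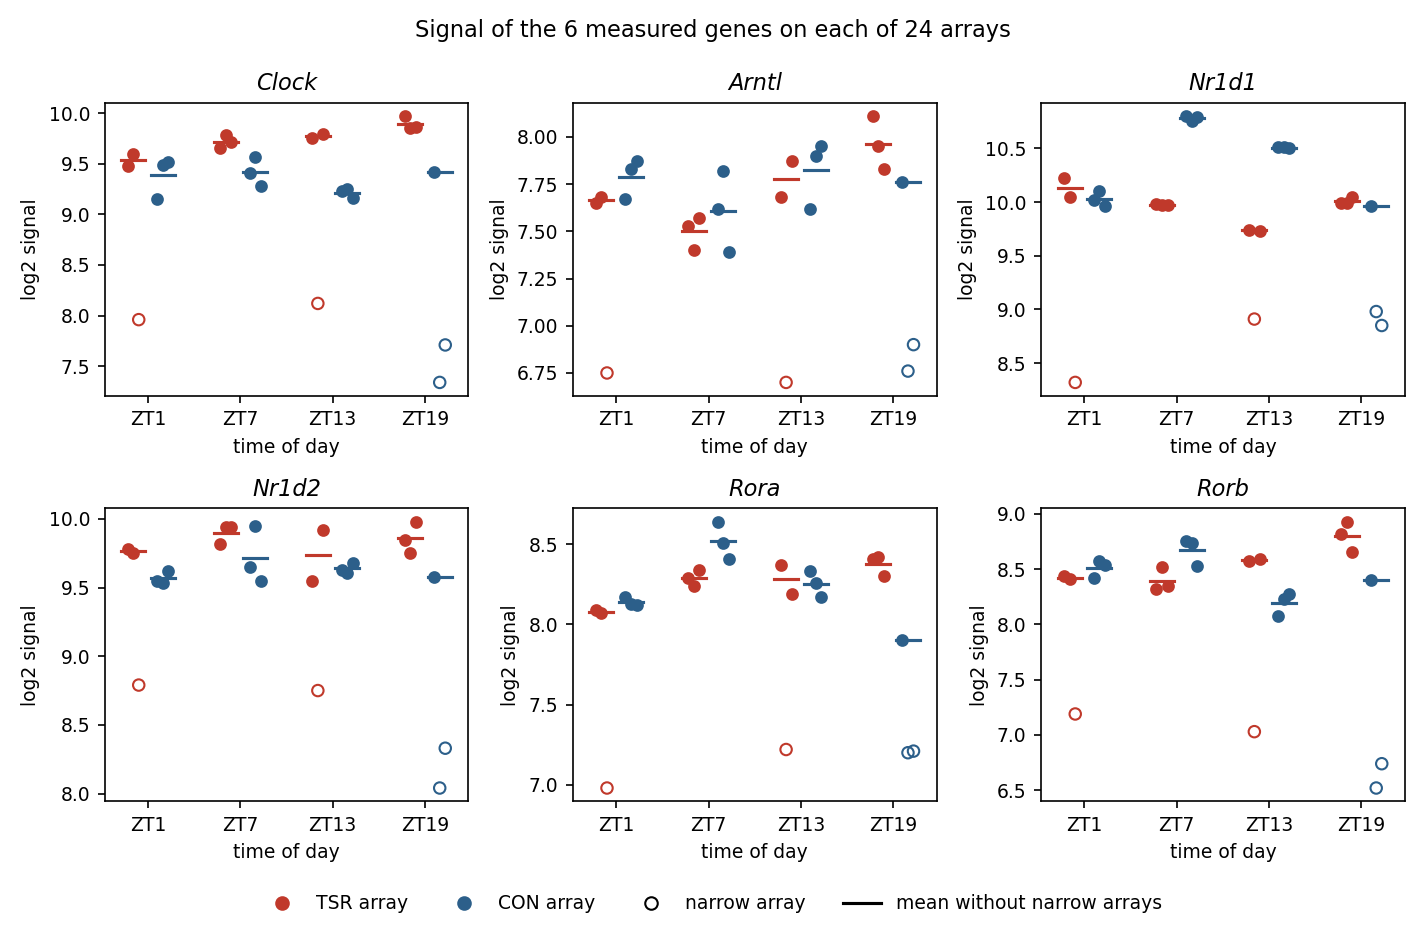
Log2 signal of each gene on every array by time of day, with TSR arrays left of CON arrays, narrow arrays as open circles and bars at the group means without them. TSR and CON arrays of Nr1d1 lie apart at ZT7 and ZT13, and open circles lie below all filled ones in each panel.

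Clock, the DNA-binding partner of BMAL1, was higher in TSR than in CON outside ZT1 once the narrow arrays were left out. At ZT1, Clock had 9.48, 9.60 and, on the narrow array, 7.96 log2 units in TSR, against 9.15, 9.49 and 9.52 in CON. The groups overlapped there, and the difference of 0.15 ± 0.09 (SE, 20 arrays) did not pass (adjusted p = 0.306). At ZT7 it had 9.66, 9.78 and 9.71 in TSR, against 9.41, 9.57 and 9.28 in CON. All TSR arrays were above all CON arrays, with a difference of 0.30 ± 0.08 (adjusted p = 0.0125 with 20 arrays). At ZT13, Clock had 9.75, 9.79 and, on the narrow array, 8.12 in TSR, against 9.23, 9.25 and 9.16 in CON. Both TSR arrays of full spread were above the 3 CON arrays, and the narrow one was below them. The difference was 0.55 ± 0.09 without the narrow array, a ratio of 1.47 (adjusted p = 1.15e-04). At ZT19 Clock had 9.97, 9.85 and 9.86 in TSR, against 9.42 and, on the narrow arrays, 7.34 and 7.71 in CON. The 3 TSR arrays were above the 1 remaining CON array, with a difference of 0.47 ± 0.12 (adjusted p = 0.00879).

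Over the 4 times Clock was 0.37 ± 0.05 log2 units higher in TSR with 20 arrays. The average was 0.34 to 0.39 when a further array other than the CON array of ZT19 was left out. With 24 arrays the same average was 0.42 ± 0.24 and did not pass (adjusted p = 0.41). The ZT7 call was lost without replicate 2 of TSR or without replicate 3 of CON at that time, with an adjusted p of up to 0.0601. Among the times, TSR levels were highest at ZT19 and lowest at ZT1, and the arrays of ZT13 and ZT7, next to each other in that order, overlapped. In CON all neighbours in the order of times overlapped. The range of the group means was 0.36 log2 units in TSR and 0.21 in CON.

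Arntl, whose product BMAL1 is required for the clock to run in mice, did not pass between TSR and CON at any time with 20 arrays. At ZT1, Arntl had 7.65, 7.68 and, on the narrow array, 6.75 log2 units in TSR, against 7.67, 7.83 and 7.87 in CON. At ZT7 it had 7.53, 7.40 and 7.57 in TSR, against 7.62, 7.82 and 7.39 in CON. The conditions overlapped at both times. At ZT13 it had 7.68, 7.87 and, on the narrow array, 6.70 in TSR, against 7.62, 7.90 and 7.95 in CON, again with overlap. At ZT19 it had 8.11, 7.95 and 7.83 in TSR, against 7.76 and, on the narrow arrays, 6.76 and 6.90 in CON. The 3 TSR arrays at ZT19 were above the 1 remaining CON array, and the difference of 0.21 ± 0.15 did not pass (adjusted p = 0.317). The differences at ZT1, ZT7 and ZT13 were −0.13 ± 0.12, −0.11 ± 0.11 and −0.04 ± 0.12, with adjusted p-values of 0.507, 0.489 and 0.789.

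The TSR arrays of Arntl varied with time of day. Its amplitude, the distance from mean to peak of a fitted 24 h cosine, was 0.24 ± 0.05 log2 units in TSR with the peak at ZT18.1 ± 1.03 h (adjusted p = 0.0114, 20 arrays). In CON it was 0.08 ± 0.07 (adjusted p = 0.727). The difference between these rhythms had an amplitude of 0.16 ± 0.09 and did not pass (adjusted p = 0.339), so a rhythm in TSR alone was not shown. The TSR call was lost without replicate 2 of TSR at ZT7 or replicate 1 of TSR at ZT19, with an adjusted p of up to 0.0597. Arntl in TSR was highest at ZT19 and lowest at ZT7, a range of 0.46 log2 units. In CON the neighbours in the order of times overlapped throughout.

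Nr1d1, which encodes REV-ERBα, the repressor that closes the coupled loop, was lower in TSR at ZT7 and ZT13 with 20 arrays and did not pass at ZT1 or ZT19. At ZT7 it had 9.98, 9.97 and 9.97 log2 units in TSR, against 10.80, 10.75 and 10.79 in CON. None of these 6 arrays was narrow, and the 2 conditions lay far apart next to the spread within each. The difference was −0.81 ± 0.05, a ratio of TSR to CON of 0.571 (adjusted p = 1.32e-09 with 20 arrays). With 24 arrays the same difference had an SE of 0.38 and did not pass in limma's fit (adjusted p = 0.866), the pooled spread there including the narrow arrays of other times. A fit to the 6 arrays of ZT7 alone called it (adjusted p = 1.55e-05).

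At ZT13, Nr1d1 had 9.74, 9.73 and, on the narrow array, 8.91 log2 units in TSR, against 10.51, 10.51 and 10.50 in CON. All TSR arrays were below all CON arrays, with or without the narrow one. The difference was −0.77 ± 0.06 with 20 arrays, a ratio of 0.588 (adjusted p = 1.65e-08), and −1.04 ± 0.38 with 24, where it did not pass (adjusted p = 0.227). At ZT1 it had 10.22, 10.05 and, on the narrow array, 8.32 in TSR, against 10.02, 10.10 and 9.96 in CON, which overlapped. At ZT19 it had 9.99, 9.99 and 10.05 in TSR, against 9.96 and, on the narrow arrays, 8.98 and 8.85 in CON. The difference with 20 arrays was 0.11 ± 0.06 at ZT1 (adjusted p = 0.23) and 0.04 ± 0.07 at ZT19 (adjusted p = 0.673). On average over times Nr1d1 was 0.36 ± 0.03 log2 units lower in TSR, an estimate of −0.36 (adjusted p = 2.33e-08). The ZT7 and ZT13 calls of Nr1d1 held when any further array was left out of the 20. Its average was −0.38 to −0.33 when a further array other than the CON array of ZT19 was left out.

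The daily course of Nr1d1 differed between the conditions with 20 arrays. In TSR its fitted rhythm had an amplitude of 0.20 ± 0.03 log2 units and a peak at ZT0.648 ± 0.50 h (adjusted p = 8.11e-04). In CON the amplitude was 0.47 ± 0.03 and the peak lay at ZT9.03 ± 0.24 h (adjusted p = 4.26e-08). The TSR amplitude depended on the narrow arrays: it was 0.04 ± 0.19 with 24 arrays and 0.04 ± 0.06 with the narrow arrays kept and fitted as a block, and it did not pass in either fit (adjusted p = 0.999996 and 0.889). The difference between the rhythms, taken as a vector of size and phase, had an amplitude of 0.61 ± 0.04 and passed (adjusted p = 7.14e-08). The order of times also differed: TSR was highest at ZT1 and lowest at ZT13, and CON was highest at ZT7 and lowest at ZT19. In TSR no neighbours in the order overlapped, and in CON the arrays of ZT1 and ZT19 did and the other neighbours did not. The range of group means in TSR, 0.40 log2 units, was larger than that of 83.2% of the genes tested, and the CON range of 0.82 was larger than that of 98.8%.

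Nr1d2, which encodes the close relative REV-ERBβ, did not pass at any single time with 20 arrays. It had 9.82, 9.94 and 9.94 log2 units at ZT7 in TSR, against 9.65, 9.95 and 9.55 in CON. At ZT13 it had 9.55, 9.92 and, on the narrow array, 8.75 in TSR, against 9.63, 9.61 and 9.68 in CON. The conditions overlapped at both times, where Nr1d1 had separated, with differences of 0.18 ± 0.09 (adjusted p = 0.157) and 0.10 ± 0.10 (adjusted p = 0.47). At ZT1 it had 9.78, 9.75 and, on the narrow array, 8.79 in TSR, against 9.55, 9.53 and 9.62 in CON. At ZT19 it had 9.85, 9.75 and 9.98 in TSR, against 9.58 and, on the narrow arrays, 8.04 and 8.33 in CON. Without the narrow arrays the conditions did not overlap at these 2 times, and neither difference passed, at 0.20 ± 0.10 (adjusted p = 0.234) and 0.28 ± 0.13 (adjusted p = 0.118). With 20 arrays the average over times was 0.19 ± 0.05 higher in TSR. It was 0.14 to 0.24 when a further array other than the CON array of ZT19 was left out. The ZT7 difference was called without replicate 2 of CON at ZT7, at 0.30 (adjusted p = 0.0113). Its amplitude was 0.02 ± 0.05 in TSR and 0.08 ± 0.06 in CON, and neither passed (adjusted p = 0.913 and 0.6).

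Rora, which encodes RORα, an activator at the RORE, was lower in TSR at ZT7 and higher in TSR at ZT19 with 20 arrays. At ZT7 it had 8.29, 8.24 and 8.34 log2 units in TSR, against 8.64, 8.51 and 8.41 in CON. The conditions did not overlap, and the difference was −0.23 ± 0.07 (adjusted p = 0.0205, 20 arrays). This call was lost without replicate 1 or 2 of TSR or replicate 1 of CON at ZT7, with an adjusted p of up to 0.113. At ZT19 Rora had 8.41, 8.42 and 8.30 in TSR, against 7.90 and, on the narrow arrays, 7.20 and 7.21 in CON. The TSR arrays were above the 1 remaining CON array by 0.48 ± 0.10 (adjusted p = 0.00275). At ZT1 it had 8.09, 8.07 and, on the narrow array, 6.98 in TSR, against 8.17, 8.13 and 8.12 in CON, without overlap but with a difference of −0.06 ± 0.08 that did not pass (adjusted p = 0.643). At ZT13 it had 8.37, 8.19 and, on the narrow array, 7.22 in TSR, against 8.33, 8.26 and 8.17 in CON, which overlapped. The difference at ZT13 was 0.03 ± 0.08 (adjusted p = 0.799), and the average over times was 0.05 ± 0.04 (adjusted p = 0.28).

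In TSR the rhythm of Rora had an amplitude of 0.11 ± 0.04 log2 units and did not pass (adjusted p = 0.14, 20 arrays). In CON the amplitude was 0.32 ± 0.05 with a peak at ZT7.67 ± 0.44 h (adjusted p = 5.25e-04). The difference between the rhythms was 0.36 ± 0.06 with 20 arrays, and 0.33 to 0.39 when a further array was left out. The 1 remaining CON array of ZT19 was kept in each of these fits, since the comparison needs that group. TSR had a range of 0.30 log2 units, and its ZT19, ZT7 and ZT13 arrays overlapped as neighbours. CON ran highest at ZT7 and lowest at ZT19, a range of 0.62 that exceeded that of 96.4% of genes, and the ZT19 level there rests on 1 array.

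Rorb, which encodes RORβ, a receptor found largely in brain, retina and pineal, was lower in TSR at ZT7 and higher at ZT13 and ZT19 with 20 arrays. At ZT7 Rorb had 8.32, 8.52 and 8.35 log2 units in TSR, against 8.76, 8.74 and 8.53 in CON. All TSR arrays were below all CON arrays, the nearest pair by little, and the difference was −0.28 ± 0.08 (adjusted p = 0.0146, 20 arrays). It was lost without replicate 1 or 3 of TSR or replicate 1 of CON at ZT7, with an adjusted p of up to 0.0714. At ZT13 it had 8.57, 8.59 and, on the narrow array, 7.03 in TSR, against 8.08, 8.23 and 8.28 in CON. The TSR arrays of full spread were above all CON arrays, by 0.39 ± 0.09 (adjusted p = 0.00201), a ratio of 1.31. At ZT19 it had 8.82, 8.93 and 8.66 in TSR, against 8.40 and, on the narrow arrays, 6.52 and 6.74 in CON. That difference was 0.40 ± 0.12 (adjusted p = 0.018) and was lost without replicate 2 of TSR at ZT19 (adjusted p = 0.0526). At ZT1 it had 8.44, 8.41 and, on the narrow array, 7.19 in TSR, against 8.42, 8.57 and 8.54 in CON, with overlap and a difference of −0.09 ± 0.09 (adjusted p = 0.569). The average of 0.10 ± 0.05 did not pass (adjusted p = 0.0706), and it passed without replicate 3 of TSR at ZT19 (adjusted p = 0.0322).

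The fitted peak of Rorb lay at different times of day in the 2 conditions. Its amplitude was 0.22 ± 0.04 log2 units in TSR with a peak at ZT17.6 ± 0.86 h (adjusted p = 0.00379), and 0.21 ± 0.05 in CON with a peak at ZT3.73 ± 0.94 h (adjusted p = 0.00878). With the narrow arrays kept as a block the TSR amplitude was 0.20 ± 0.05 and did not pass (adjusted p = 0.0539). The difference between the rhythms was 0.41 ± 0.07 with 20 arrays (adjusted p = 8.56e-04). TSR was highest at ZT19 and lowest at ZT7, and CON was highest at ZT7 and lowest at ZT13.

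**Figure D3:**
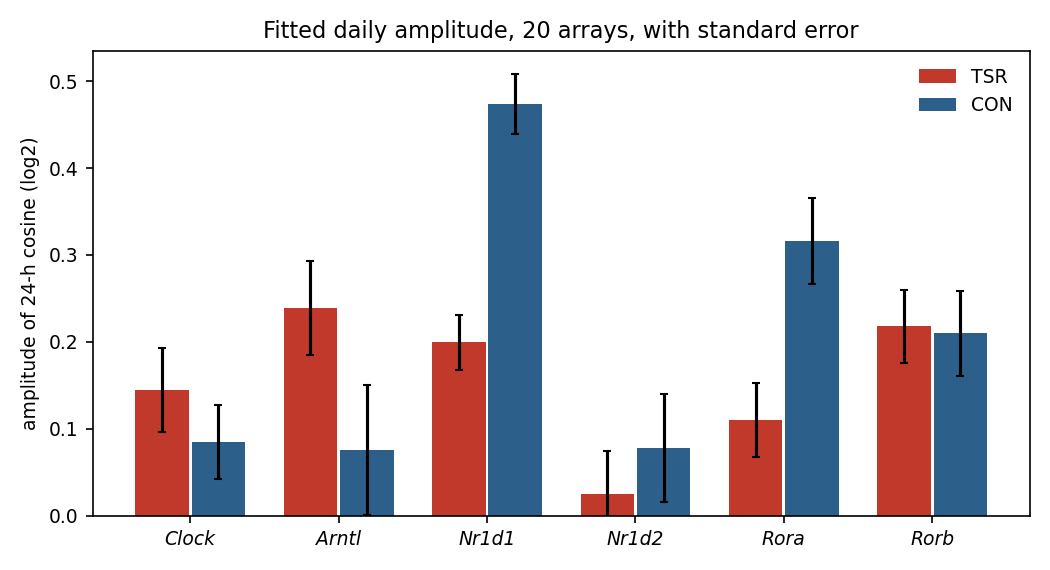
Amplitude of the fitted 24 h cosine in log2 units for each gene in TSR (left bar) and CON (right bar), 20 arrays, with standard errors. Nr1d1 has 0.20 in TSR and 0.47 in CON, and Arntl has 0.24 in TSR and 0.08 in CON.

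Counted over the 6 genes with 20 arrays, 0 passed at ZT1, 4 at ZT7 (1 higher and 3 lower in TSR), 3 at ZT13 (2 higher and 1 lower), 3 at ZT19 (all higher) and 3 on average (2 higher and 1 lower). Of all 11963 genes tested, 10.02% passed at ZT1, 26.7% at ZT7, 45.9% at ZT13, 24.6% at ZT19 and 56.3% on average. At ZT1 the unadjusted p of the 6 genes was 0.0735 to 0.438, and 3220 of all genes had an unadjusted p under 0.05. The share of the 6 was near that of all genes at ZT13 and on average. With the narrow arrays kept and fitted as a block, the ZT7 calls of Clock, Rora and Rorb were lost (adjusted p = 0.0578, 0.0902 and 0.0746) and that of Nr1d1 was not (adjusted p = 6.12e-05). The median difference of the 6 genes was −0.17 at ZT7, 0.06 at ZT13 and 0.34 at ZT19, against 0.00111, −0.00122 and 0.0788 over all genes. TSR and CON arrays did not overlap for 2 of the 6 genes at ZT1, 4 at ZT7, 3 at ZT13 and 6 at ZT19. Over all genes with 20 arrays this share was 52.4%, 36.1%, 62.4% and 79.5% at those times, so at ZT1, ZT13 and ZT19 most genes separated as well.

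For rhythms with 20 arrays, 3 of the 6 genes passed in TSR (Arntl, Nr1d1 and Rorb), where 21.5% of all genes did. In CON 3 passed (Nr1d1, Rora and Rorb), where 21.4% of all genes did. The mean of the conditions was rhythmic for 2 (Nr1d1 and Rora), against 7.14% of all genes. The rhythm differed between TSR and CON for 3 (Nr1d1, Rora and Rorb), against 28.9% of all genes. Clock had a difference of 0.22 ± 0.07 that did not pass (adjusted p = 0.0542), and it passed without replicate 1 of CON at ZT1, replicate 2 of CON at ZT7 or replicate 3 of CON at ZT7, with an adjusted p down to 0.00598.

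With all 24 arrays 0 of the 6 genes passed at ZT1, ZT7, ZT13 or on average by limma's test, and 5 passed at ZT19, all higher in TSR. Of all genes, 0.0502% passed at ZT1, 0.460% at ZT7, 0.418% at ZT13, 2.41% on average and 55.2% at ZT19. An unadjusted p under 0.05 was reached by 491, 658, 1635 and 1933 of all genes at ZT1, ZT7, ZT13 and on average. Among the 6 genes Nr1d1 alone had one, at ZT7 (0.0443), ZT13 (0.0118) and on average (0.0463). At ZT19 the median of all genes was itself 0.594 higher in TSR, where 2 of the 3 CON arrays were narrow. The 5 genes there were Clock at 1.73 ± 0.48 (adjusted p = 0.0198), Rorb at 1.58 ± 0.42 (0.0196), Nr1d2 at 1.21 ± 0.35 (0.0205), Rora at 0.94 ± 0.28 (0.021) and Arntl at 0.82 ± 0.29 (0.0282). Nr1d1 had 0.75 ± 0.38 (adjusted p = 0.09). The count of 5 went to 0 without replicate 1 or 2 of TSR or without replicate 2 or 3 of CON at ZT19, and to 3 with 20 arrays.

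For rhythms with 24 arrays 0 of the 6 genes passed in TSR, in CON, in their mean or in their difference, where 0.0920%, 0.109%, 0.0502% and 0.259% of all genes did. An unadjusted p under 0.05 was reached by 285, 3777, 587 and 1405 of all genes in these tests. In CON, 5 of the 6 had one, all but Arntl, with values of 0.00169 to 0.0483, and the adjusted p was 0.158 for each of them. For the difference between rhythms the unadjusted p was 0.0168 for Rorb, 0.02 for Nr1d1 and 0.0278 for Rora, and the adjusted p was 0.361 for all 6 genes.

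**Figure D4:**
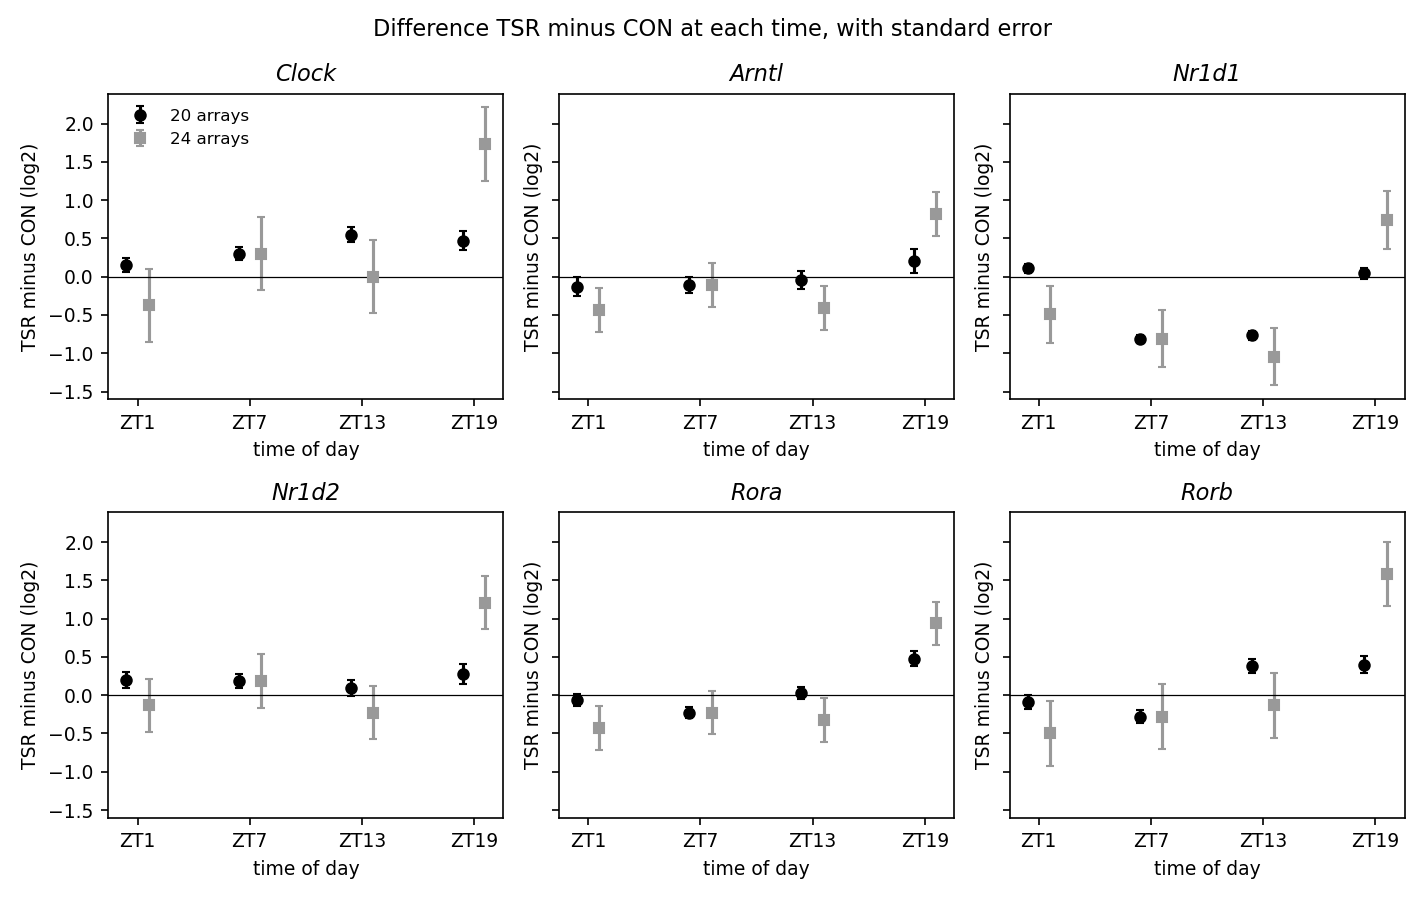
Difference TSR minus CON in log2 units with its standard error for each gene at ZT1, ZT7, ZT13 and ZT19, from the fits to 20 and to 24 arrays. The 2 fits give the same difference at ZT7, with wider errors at 24 arrays, and all 6 genes are shifted upward at ZT19 with 24 arrays.

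Markers of brain regions also differed between the groups. Over 12 markers of the suprachiasmatic nucleus, of which 10 lay above the filter of 5.84 log2 units, the mean signal was 6.72 to 6.76 on the TSR arrays and 7.41 to 7.46 on the CON arrays at ZT7. At ZT13 it was 6.73 to 6.78 in TSR and 7.20 to 7.35 in CON. Of the 10, 9 passed as lower in TSR at ZT7 and 7 at ZT13 with 20 arrays, the times at which Nr1d1 was lower. Of all genes, 26.7% and 45.9% passed there in either direction. With 24 arrays 1 of the 10 passed at ZT7 and 2 at ZT13, all lower, where 0.460% and 0.418% of all genes did. At ZT1 the mean was 6.91 to 6.97 in TSR and at most 7.05 in CON, without overlap, and at ZT19 it was 7.26 to 7.40 in TSR and 7.21 on the CON array. Of the peptides on the list, Avp averaged 8.85 log2 units over the 20 arrays, Grp 6.32 and Prok2 6.28. Vip, at 5.82, and Nms, at 5.66, lay under the filter. The list includes genes that are themselves rhythmic in that nucleus. In bulk tissue, fewer cells of a type and less RNA per cell cannot be told apart, and the part of these markers in the differences of the 6 genes was not tested.

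Markers of the basal forebrain and striatum, 8 of 9 above the filter, had a mean of 7.70 to 7.74 in TSR and 5.98 to 6.21 in CON at ZT7, with all 8 higher in TSR. At ZT13 the mean was 7.25 to 7.35 in TSR and 6.86 to 6.95 in CON, and at ZT19 it was 7.03 to 7.07 in TSR and 6.02 in CON. At ZT1 the conditions overlapped, with 7.32 to 7.36 in TSR and 7.20 to 7.35 in CON. With 20 arrays all 8 passed at ZT7, where 26.7% of all genes did. At ZT13 the markers went both ways, with 4 higher and 2 lower, where 45.9% of all genes passed. At ZT19 their median difference was 1.03, against 0.0788 over all genes. With 24 arrays 8 passed at ZT7, all higher, 1 at ZT13, lower, and 5 at ZT19, all higher. Of all genes 0.460%, 0.418% and 55.2% passed at these times. Markers of thalamus and cortex, 8 of 9 above the filter, had 6.28 to 6.42 in TSR and 5.91 to 5.98 in CON at ZT7. They had 6.60 to 6.66 in TSR and 6.05 to 6.13 in CON at ZT13, and 6.37 to 6.44 in TSR and 5.92 in CON at ZT19. At ZT1 they had 6.17 to 6.19 in TSR and 6.30 to 6.33 in CON. Neurod6, a defining gene of cortical neurons, was the 1 marker under the filter, at 2.30. Other genes of cortical neurons on the list lay above it, with Slc17a7 at 6.26, Emx1 at 6.55, Tbr1 at 6.56 and Cux2 at 7.04. The part of both lists in the differences of the 6 genes was not tested.

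Of 9 markers of the labelled tissue, 6 lay above the filter. The mean of the 9 was 6.21 to 6.51 over the TSR arrays and 6.47 to 6.80 over the CON arrays of full spread. With 20 arrays all 6 were lower in TSR on average, with a median difference of −0.26 against 0.0276 over all genes. With 24 arrays 1 of the 6 passed on average, lower in TSR, where 2.41% of all genes passed. Npy and Tac2 averaged 7.04 and 8.65 log2 units, and Pomc, Nr5a1 and Nkx2-1, also defining genes of this region, lay under the filter at 5.59, 5.59 and 5.70. The 6 astrocyte markers had a mean of 8.88 to 8.96 in TSR and 8.98 to 9.16 in CON at ZT7. There 3 passed with 20 arrays, all lower in TSR, where 26.7% of all genes passed. Their mean was 8.87 to 9.09 in TSR and 8.72 to 8.80 in CON at ZT13, where 2 passed, both higher, against 45.9% of all genes. At ZT19 the mean was 8.79 to 8.95 in TSR and 8.64 in CON. Fabp7, also a RORE target described below, was among the astrocyte markers called at ZT7 and ZT13, at −0.33 and 0.41 with 20 arrays. With 24 arrays 0 of the 6 passed at ZT7 or ZT13, where 0.460% and 0.418% of all genes did. At ZT19 4 passed with 24 arrays, all higher, where 55.2% of all genes did. These means were on the same side as Rorb at ZT7, ZT13 and ZT19 and as Rora at ZT7 and ZT19. At ZT1 they were 9.19 to 9.20 in TSR and 9.06 to 9.17 in CON. Rora and Rorb were on the opposite side at ZT1, at −0.06 and −0.09 with 20 arrays, and neither passed. Oligodendrocyte markers were higher in TSR at ZT1 with 20 arrays, at 10.06 to 10.07 against 9.48 to 9.53 in CON. With 24 arrays 0 of the 5 passed at ZT1 or ZT19, where 0.0502% and 55.2% of all genes did. The part of these lists in the differences of the 6 genes was not tested.

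Most listed E-box targets of the activators were lower in TSR at ZT7 and ZT13 with 20 arrays. At these times Nr1d1 was lower, Clock was higher, at 0.30 and 0.55, and Arntl did not pass. A link between the targets and these genes was not tested. Of 14 E-box targets of CLOCK and BMAL1, 8 were lower and 1 higher in TSR at ZT7, and 10 were lower and 2 higher at ZT13 with 20 arrays, where 26.7% and 45.9% of all genes passed in either direction. At ZT1, 4 were higher and 0 lower (10.02% of all genes passed), and at ZT19 3 were higher and 3 lower (24.6%). On average 3 were higher and 7 lower (56.3%), with a median of −0.12 against 0.0276 over all genes. The 3 with the largest average differences were Bhlhe41, a repressor of E-box genes, at −0.56 ± 0.06, Dbp, a D-box activator, at −0.49 ± 0.04, and Nampt, an enzyme of NAD salvage, at 0.45 ± 0.06 (adjusted p = 2.15e-07, 4.88e-08 and 6.10e-06). Dbp was lower by 1.11 log2 units at ZT13, with an estimate of −1.11 ± 0.09, and its amplitude was 0.23 in TSR with a peak at ZT3.13 and 0.63 in CON with a peak at ZT10.8. The rhythm differed between TSR and CON for 10 of the 14, against 28.9% of all genes. With 24 arrays 0 of the 14 passed at ZT1, 1 at ZT7 and 1 at ZT13, both lower. Of all genes 0.0502%, 0.460% and 0.418% passed at these times. On average 1 of the 14 passed, lower, where 2.41% of all genes did, and 4 passed at ZT19, all higher. The share at ZT19 was below the 55.2% of all genes. At ZT1 with 24 arrays 491 of all genes had an unadjusted p under 0.05.

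Of 4 RORE targets outside the 7 genes, 3 were measured, and all 3 were lower in TSR on average with 20 arrays, where 56.3% of all genes passed in either direction. Fabp7, which encodes a fatty acid binding protein of astrocytes and is a known REV-ERB target in brain, was at −0.31 ± 0.06, Nfil3, a repressor at the D-box, at −0.19 ± 0.06, and Cry1, also an E-box target, at −0.13 ± 0.05 (adjusted p = 1.29e-04, 0.0147 and 0.0475). Fabp7 was not lower throughout, at −1.14 ± 0.11 at ZT1 and 0.41 ± 0.11 at ZT13. Its amplitude was 0.19 in TSR with a peak at ZT7.91, and 0.78 in CON with a peak at ZT2.36. With 24 arrays 1 of the 3 passed at ZT1, lower, and 0 on average, where 0.0502% and 2.41% of all genes did.

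Of 15 partners, kinases and ligases of the loops, 12 were tested, and 4 were higher and 1 lower in TSR on average with 20 arrays, a smaller share than the 56.3% of all genes that passed. The 3 largest were Kdm5a, a demethylase that acts with CLOCK and BMAL1, at 0.40 ± 0.05, Csnk1e, a kinase of the Period proteins, at −0.26 ± 0.04, and Nono, a binding partner of those proteins, at 0.23 ± 0.03 (adjusted p = 1.35e-06, 3.33e-05 and 6.56e-06). With 24 arrays 0 of the 12 passed on average, where 2.41% of all genes did and 1933 had an unadjusted p under 0.05, and 8 passed at ZT19, where 55.2% did. Arntl2, a paralogue of Arntl, was not called in any comparison with 24 or 20 arrays.

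Across the 20 arrays the 6 genes did not move as a block. The Pearson correlation between pairs of them ran from −0.60 for Clock and Nr1d1 to 0.66 for Clock and Nr1d2, and the REV-ERB pair had −0.20. Clock and Rorb had 0.61, Nr1d1 and Rora 0.47, and Rora and Rorb 0.46. Arntl and Nr1d1 had −0.16. The arrays share groups and times of day, so these values describe the 20 arrays and carry no test.

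Among 11925 genes with a value on all 20 arrays, those with the profile most like each of the 6 were found by the same correlation. They were Trip12 (0.951) and Ppig (0.94) for Clock, Syt9 (0.909) and Usp13 (0.889) for Arntl, and Unk (0.926) and Zfp395 (0.896) for Nr1d1. For Nr1d2 they were Riok2 (0.782) and Zfp512 (0.767), for Rora Uvssa (0.814) and AV039307 (0.787), and for Rorb Lrif1 (0.889) and Adgrb3 (0.887). The nearest profile was thus less alike for Nr1d2 and Rora than for the other 4 genes.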

How the data were processed

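RNA of 24 samples was isolated with Trizol, labelled with biotin and hybridised to Affymetrix arrays, per the labels' protocols. Affymetrix Expression Console is named in the submitters' processing notes, with no version. How it summarized probes and corrected background is not stated in the labels used here. The authors deposited log2 signals of 35556 probe sets. Of 853344 cells, 1788 (0.21%) with a misplaced decimal point were restored, 122 with lost digits were set to missing and 9 were missing as deposited. None of these was among the 144 cells of the genes described.

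Genes were named from the platform annotation through probe sets with 1 symbol. Each gene was represented by its brightest such probe set on average. Genes below 5.84 log2 units, the 40th percentile, were dropped, leaving 11963. Group means of 8 groups were fitted with limma 3.58.1 in R 4.3.3, with a trend in the moderation, and p-values were adjusted over all genes (Benjamini-Hochberg, threshold 0.05, 2-sided). Rhythms were tested by an F test on ZT1 against ZT13 and ZT7 against ZT19. The fits were tested on simulated data. P-values measure the spread between arrays, which is between mice per the series description.

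The genes and lists were chosen with earlier results of these data known. Genes outside the 7 were named by a rule: up to 3 of each list that passed, with the largest average difference, and the 2 nearest profiles of each gene. Pomc, Npy and other single markers, and the times at which list genes are given, were chosen after their values were seen. Promoters came from RefSeq, GRCm38.p6, for all 7 genes.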

Additional observations from a re-analysis of the deposited data

Results flagged for a closer look

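The daily rhythm differed between TSR and CON for 3 of the 6 genes by a test of the difference itself, with the 20 arrays of full spread. The adjusted p of limma's F test was 7.14e-08 for Nr1d1, with an amplitude of 0.20 log2 units in TSR and 0.47 in CON. It was 0.00116 for Rora, with 0.11 in TSR and 0.32 in CON. It was 0.000856 for Rorb, with a peak at ZT17.6 in TSR and ZT3.73 in CON. With all 24 arrays the adjusted p was 0.361 for each of the 3. Of all genes, 28.9% had such a difference with 20 arrays.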

How the results depend on the processing

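With 24 arrays, the counts of the 6 genes that passed at ZT1, ZT7, ZT13, ZT19 and on average were 0, 0, 0, 5 and 0, and those with a rhythm in TSR, in CON, in both conditions and with a different rhythm in TSR and CON were 0 each. With 20 arrays they were 0, 4, 3, 3 and 3, and 3, 3, 2 and 3. With 20 arrays quantile normalized again they were 0, 5, 3, 3 and 3, and 4, 3, 3 and 4. With the narrow arrays as a block, they were 0, 1, 3, 4 and 4, and 1, 3, 1 and 3. With array weights they were 1, 5, 5, 6 and 6, and 6, 6, 5 and 6. With 24 arrays quantile normalized again, 1 gene passed at ZT13, 2 on average and 1 had a rhythm in CON. Fits to only the arrays compared called 2 at ZT7 and 0 at ZT19. The counts were within 1.5 times of those with 24 arrays with no filter, the mean of probe sets, moderation without the trend or robust, the damaged cells missing, and the F test on 3 differences between times. Leaving out each array in turn gave 0 to 1 at ZT13, 0 to 6 at ZT19, 0 to 5 for the rhythm in CON and 0 to 5 for the difference in rhythm. These include 1 at ZT13, 2 in CON and 1 for the difference without replicate 3 of TSR at ZT1, and 5 in CON and 5 for the difference without replicate 1 of CON at ZT19.

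The deviations of samples of 1 replicate number had a median correlation of 0.03 (−0.51 to 0.47 over 51 pairs), against −0.02 for pairs of other numbers. Pairs of 1 number at 1 time had 0.07 (−0.07 to 0.44), and these were 7, too few to tell whether the numbers pair samples. The replicate block left the counts with 24 arrays at 0, 0, 0, 5 and 0, and at 0 for each rhythm. With 20 arrays the replicate block gave 0, 4, 3, 3 and 3, and 3, 3, 2 and 4, where the count without it was 3 for the last.

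Several differences that did not pass with 24 arrays changed sign. At ZT1 Clock went to 0.15 with 20 arrays, 0.09 with these normalized again, 0.20 with the block for narrow arrays, 0.13 with array weights, 0.14 with the replicate block on 20 arrays and −0.67 to 0.15 when 1 array was left out. In the same order of settings, without the block for narrow arrays, Nr1d1 went to 0.11, 0.03, 0.09 and 0.11, and from −0.84 to 0.11 without 1 array. Nr1d2 at ZT1 went to 0.20, 0.14, 0.24 with the block for narrow arrays, 0.18, 0.22 and 0.11 with 24 arrays normalized again, and from −0.30 to 0.20 without 1 array. Rorb went to 0.01 with the block for narrow arrays. At ZT13 Clock ranged from −0.28 to 0.55 without 1 array. Nr1d2 at ZT13 went to 0.10 with 20 arrays, 0.14 with these normalized again, 0.14 with the block for narrow arrays, 0.04 with 24 arrays normalized again and 0.10 with the replicate block on 20 arrays, and from −0.49 to 0.10 without 1 array. Rora at ZT13 went to 0.03 with 20 arrays, 0.00 with these normalized again, 0.15 with array weights and 0.03 with the replicate block on 20 arrays, and from −0.55 to 0.03 without 1 array. Rorb at ZT13 went to 0.39, 0.37, 0.38 with the block for narrow arrays, 0.34 and 0.42 in these settings, and from −0.39 to 0.39 without 1 array. At ZT19 Nr1d1 went to −0.07 with the block for narrow arrays. On average Arntl went to 0.15 with array weights and from −0.09 to 0.06 without 1 array. Rora on average went to 0.05 with 20 arrays, 0.01 with these normalized again, 0.23 with array weights and 0.06 with the replicate block on 20 arrays, and from −0.07 to 0.08 without 1 array. The cause of these changes was not tested beyond the settings' own construction.

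With 3 arrays a group, and 1 for CON at ZT19 without the narrow arrays, small differences were not detectable. Steps of 6 h fix 1 cosine a condition and cannot separate shorter periods. Clock at ZT7, Rora at ZT7, Rorb at ZT7 and ZT19 and the TSR rhythm of Arntl were calls with 20 arrays that ended when 1 further array was left out. With the narrow arrays as a block, the ZT7 calls of Clock, Rora and Rorb ended (adjusted p = 0.0578, 0.0902 and 0.0746), and so did the TSR rhythms of Nr1d1 (amplitude 0.04, adjusted p = 0.889) and Rorb (0.20, adjusted p = 0.0539). Restoring decimals bore on other genes and not on these 6.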
